A study of Mus musculus with 2 samples.

Results

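The fibroblast growth factor (FGF) receptors Fgfr1, Fgfr2 and Fgfr3, the ligands Fgf2 and Fgf7, the Sprouty inhibitors Spry1, Spry2 and Spry4 and the ERK phosphatases Dusp6 and Dusp7 were examined in mouse femur. These 10 genes are 10 of the 12393 genes that a probe set of the array names alone, and they have 17 of its 20380 probe sets with 1 gene symbol. All 17 are given. The genes were picked on the intensities of Fgfr2 and Dusp7, which read lower in the allograft, so the values of those genes describe the choice and are no evidence for it. Total RNA from c57Bl/6 femur was measured on 2 arrays, 1 of an allograft sample and 1 of an autograft sample. An allograft comes from another animal of the same species, an autograft from the recipient's own body. Which animal of the allograft carried the named strain, the grafting procedure, the time after it, the age of the mice and the number of animals per sample were not given in the sources used here. With 1 array per graft type no difference has a replicate check, and no test between the graft types was possible.

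FGFs are secreted proteins that bind receptor tyrosine kinases together with heparan sulphate chains on the cell surface. The receptors signal through adaptor proteins and the RAS to ERK kinase chain, and ERK activity in turn switches on Sprouty and dual-specificity phosphatase genes, which dampen the same chain. In bone, Fgfr1 and Fgfr2 act in cells of the osteoblast lineage, and Fgfr3 restrains the growth of chondrocytes in the growth plate.

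The receptor Fgfr2, by its brighter probe set, and the phosphatase Dusp7, by 1 of its 3, read at least 2-fold lower on the allograft array. The receptor Fgfr3 read 1.75-fold lower and the phosphatase Dusp6 1.46-fold lower, and Spry2, Spry1 and the brighter probe set of Fgfr1 read 1.13-fold, 1.07-fold and 1.06-fold lower. Readings are intensities, in arbitrary units, and those of at least 175.2, the median intensity of both arrays without their control probe sets, are called above the floor. Of the 17 probe sets, 8 were above the floor on both arrays, 1 on the autograft array alone and 8 on neither. All 8 that were above it on both arrays read lower in the allograft, where 57.0% of the 9774 named probe sets of that kind did. The 2 at least 2-fold lower compare with 0.655% of those probe sets, and 0 were 2-fold higher, where 1.03% of them were. Those counts include the probe sets for which the genes were picked, and nothing is read from them. The median log2 ratio of allograft over autograft was -0.55 for the 8 probe sets and -0.06 for the 9774, whose central 95% ran from -0.75 to 0.74.

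**Figure D1:**
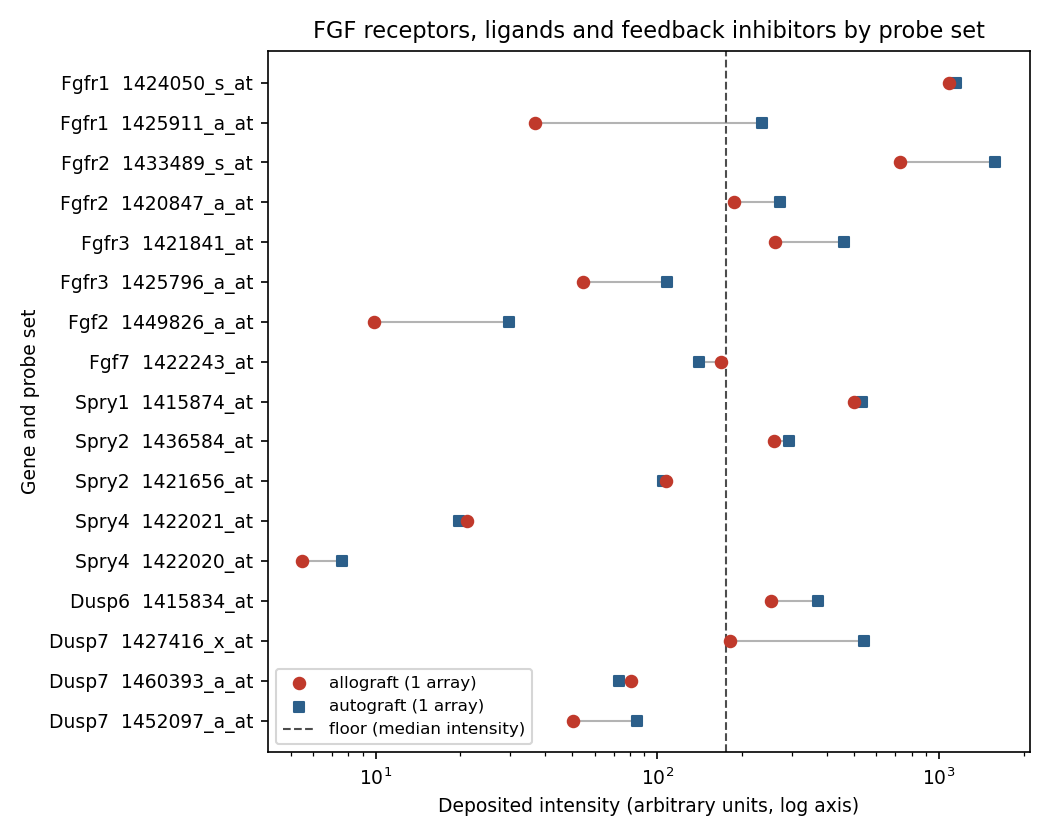
Deposited intensity (arbitrary units, log axis) of each of the 17 probe sets on the allograft array (circles) and the autograft array (squares), with the floor of 175.2 as a dashed line; each symbol is 1 array, so there are no error bars. The widest gaps above the floor on both arrays are those of Dusp7 1427416_x_at (181.5 in the allograft, 543.8 in the autograft) and Fgfr2 1433489_s_at (728.2 in the allograft, 1582.4 in the autograft).

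Fgfr2, a receptor whose activating mutations cause early fusion of the skull sutures in humans, has 2 probe sets. Its brighter probe set, 1433489_s_at, read 728.2 in the allograft and 1582.4 in the autograft. It was thus 2.17-fold lower in the allograft, a log2 ratio of -1.12, and 36 of the 9774 probe sets (0.368%) had a ratio as low or lower. The dimmer one, 1420847_a_at, read 186.7 in the allograft and 272.9 in the autograft. Its log2 ratio of -0.55 has the same direction at a smaller size, and 7.63% of the 9774 probe sets were as low or lower. Both probe sets of Fgfr2 differ by 0.57 in log2 ratio. Among 1925 genes for which 2 probe sets were above the floor in both samples this difference had an SD of 0.44, and in 17.0% of them it was at least as large as for Fgfr2. In the names of the probe sets, a marks oligonucleotides chosen to match several transcripts of one gene, s marks a set shared by several transcripts, and x marks a set in which some oligonucleotides can match other sequences as well.

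Fgfr3, the receptor that slows cartilage growth and carries activating mutations in human achondroplasia, read 262.5 in the allograft and 460.4 in the autograft by 1421841_at. That is 1.75-fold lower in the allograft, a log2 ratio of -0.81, and 1.97% of the 9774 probe sets were as low or lower. The other Fgfr3 probe set, 1425796_a_at, read 54.5 in the allograft and 108.1 in the autograft, below the floor in both samples, so it has no ratio. The low ratio of Fgfr3 therefore rests on 1 probe set.

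Fgfr1, the receptor through which many FGFs act on mesenchymal cells, gave probe sets that disagreed. Probe set 1424050_s_at read 1083.7 in the allograft and 1148.1 in the autograft, a log2 ratio of -0.08. That is close to the median of -0.05 of the 488 probe sets of similar intensity, and 46.9% of all 9774 were as low or lower. Probe set 1425911_a_at read 36.8 in the allograft and 235.3 in the autograft. Only the autograft value is above the floor, so this probe set was at least 1.34-fold lower in the allograft, a log2 bound of -0.43. The size of that bound follows from the floor: with the floor at the 25th percentile of intensities it was -2.22.

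The ligand probe sets read below the floor on both arrays. Fgf2, a mitogen of mesenchymal and endothelial cells, read 9.9 in the allograft and 29.8 in the autograft by 1449826_a_at. Fgf7, the keratinocyte growth factor made by mesenchymal cells, read 168.2 in the allograft and 140.7 in the autograft by 1422243_at, just under the floor. No ratio is given for either ligand.

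Dusp7, a cytoplasmic phosphatase that removes phosphate from ERK, read 181.5 in the allograft and 543.8 in the autograft by 1427416_x_at. This is 2.996-fold lower in the allograft, a log2 ratio of -1.58, the lowest of the 8 above the floor on both arrays, and 6 of the 9774 (0.0614%) were as low or lower. The allograft reading lies just above the floor. The other probe sets of Dusp7 were below the floor on both arrays and did not share one direction. Probe set 1460393_a_at read 80.4 in the allograft and 73.4 in the autograft, and 1452097_a_at read 50.2 in the allograft and 84.6 in the autograft. The low ratio of Dusp7 therefore rests on 1 probe set, which is one marked for oligonucleotides that can match other sequences.

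Dusp6, the close relative of Dusp7 that ERK activity induces and that acts back on ERK, read 253.7 in the allograft and 371 in the autograft by 1415834_at, its only probe set. Its log2 ratio of -0.55, or 1.46-fold lower in the allograft, is within the central 95% of all probe sets, 7.62% of which were as low or lower. Dusp6 has the same direction as Dusp7 at a smaller size.

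The Sprouty genes, whose products block the step from receptor to RAS and ERK, differed little where they were above the floor. Spry1 read 498.3 in the allograft and 534.3 in the autograft by 1415874_at, its only probe set, a log2 ratio of -0.10, which equals the median of probe sets of similar intensity. Spry2 read 260.4 in the allograft and 293.5 in the autograft by 1436584_at, a log2 ratio of -0.17. The other Spry2 probe set, 1421656_at, was below the floor at 107.4 in the allograft and 104.8 in the autograft. Both probe sets of Spry4 were far below the floor, at 21.1 in the allograft against 19.7 in the autograft for 1422021_at and at 5.5 in the allograft against 7.6 in the autograft for 1422020_at. Among all 8 probe sets below the floor on both arrays, 4 read lower and 4 higher in the allograft, and no direction is read from them.

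**Figure D2:**
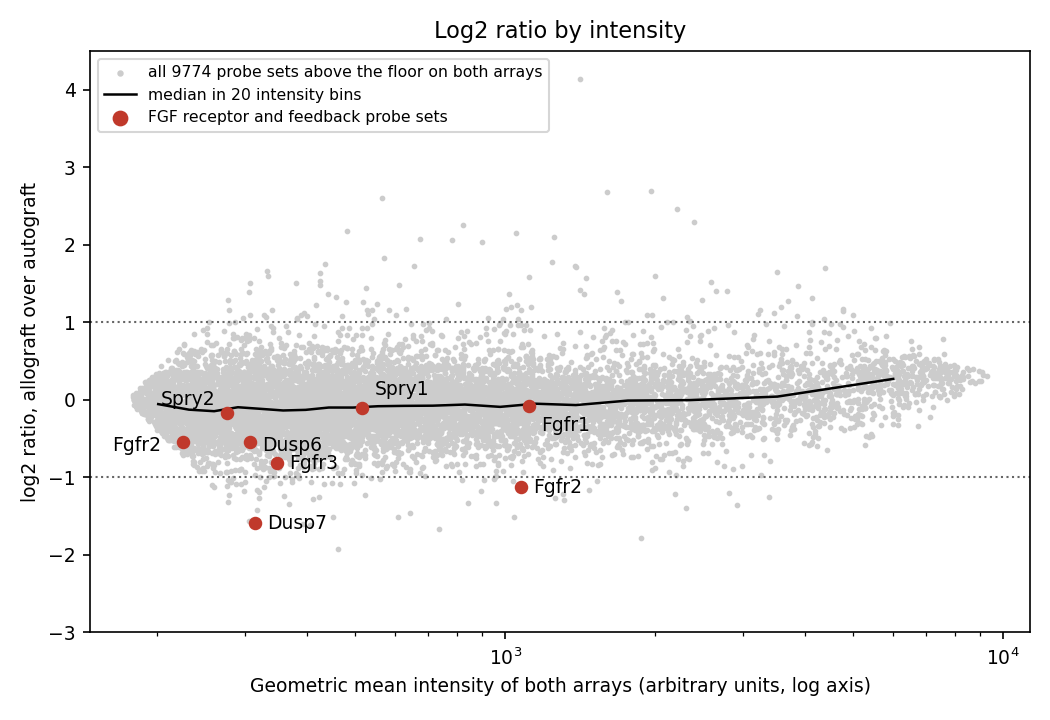
Log2 ratio of allograft over autograft against the geometric mean intensity of both arrays (arbitrary units, log axis) for the 9774 probe sets that were above the floor in both samples (grey), with the median in 20 intensity bins (line), 2-fold limits (dotted) and the 8 FGF receptor and feedback probe sets (red). Dusp7 at -1.58 and the brighter Fgfr2 probe set at -1.12 lie under the lower limit, and Fgfr1, Spry1 and Spry2 lie near the line.

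Taking for each gene the probe set with the highest mean gives 1 value per gene: 7 of the 10 were above the floor on both arrays and the other 3 (Fgf2, Fgf7 and Spry4) on neither. All 7 had a log2 ratio below 0, and 2 were at least 2-fold lower, where 0.753% of the 7833 genes above the floor on at least 1 array were 2-fold lower and 59.5% were below 0. The 7 had a median of -0.55 and the 7833 genes one of -0.08. The median of the genes above the floor was -0.26 after quantile normalization, where Fgf7 enters at 0.01. It was -0.34 or -0.36 without a floor or with a lower one, where more genes enter. Without Fgfr2 and Dusp7, for which the genes were picked, the median of the remaining 5 was -0.17. The 2-fold probe sets of Fgfr2 and Dusp7 carry the s or x mark, and without probe sets so marked 0 of the 10 genes were 2-fold lower.

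Promoter sequences were looked up because ERK acts on transcription partly through ETS factors, whose binding sites hold the core CGGAA. RefSeq windows of 300 bases, from 250 before to 50 after an annotated start in GRCm38.p6, were used, 9 windows for 8 of the 10 genes. Fgfr1 and Spry4 had none among them. Windows of a single chromosome were left out for the 10 genes, a step not applied to the count over all windows. The core, on either strand, was in 2 of the 9 windows, those of Dusp6 and Spry2, and in 29.9% of 32851 windows of that length. The AP-1 motif TGANTCA, the CRE motif TGACGTCA, the letters TATAAA and the CArG box were in 0 of the 9, against 7.81%, 1.79%, 13.6% and 1.63% of all windows. A match or its absence describes these letters only. The windows of the 2 genes that were 2-fold lower and of the 2 genes with the core are printed 5′ to 3′ on the strand of the gene, with CGGAA or its reverse complement in capitals.
Fgfr2, chr7:130266759-130267058, minus strand: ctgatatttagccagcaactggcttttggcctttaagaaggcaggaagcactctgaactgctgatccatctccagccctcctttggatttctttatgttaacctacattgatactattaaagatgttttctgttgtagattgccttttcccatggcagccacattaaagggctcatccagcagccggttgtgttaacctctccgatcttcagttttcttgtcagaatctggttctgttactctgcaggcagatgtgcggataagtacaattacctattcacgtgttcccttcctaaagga
Dusp7, chr9:106368382-106368681, plus strand: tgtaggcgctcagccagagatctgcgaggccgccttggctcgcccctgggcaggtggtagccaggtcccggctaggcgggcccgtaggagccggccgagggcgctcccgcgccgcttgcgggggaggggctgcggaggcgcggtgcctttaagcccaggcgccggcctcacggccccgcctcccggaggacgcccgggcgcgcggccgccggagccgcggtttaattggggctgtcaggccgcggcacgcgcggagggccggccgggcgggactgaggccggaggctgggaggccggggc
Dusp6, chr10:99262981-99263280, plus strand: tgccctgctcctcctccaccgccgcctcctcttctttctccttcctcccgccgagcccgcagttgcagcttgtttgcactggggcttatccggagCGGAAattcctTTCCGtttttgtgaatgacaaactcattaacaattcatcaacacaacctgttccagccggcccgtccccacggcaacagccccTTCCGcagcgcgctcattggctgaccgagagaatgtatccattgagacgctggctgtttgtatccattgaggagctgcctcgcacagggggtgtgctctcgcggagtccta
Spry2, chr14:105896770-105897069, minus strand: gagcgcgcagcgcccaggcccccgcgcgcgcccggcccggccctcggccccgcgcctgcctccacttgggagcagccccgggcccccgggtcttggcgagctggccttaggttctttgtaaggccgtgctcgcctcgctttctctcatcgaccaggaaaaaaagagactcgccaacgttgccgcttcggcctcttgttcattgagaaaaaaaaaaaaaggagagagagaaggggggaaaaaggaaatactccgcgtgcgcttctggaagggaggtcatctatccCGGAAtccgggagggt
The windows of Fgfr2 and Dusp7 hold no CGGAA, that of Dusp6 holds 3 and that of Spry2 holds 1.

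The pathway as a whole was described by 5 lists of 91 genes, which include the 10 genes above, of which 80 had a probe set of their own and 50 were above the floor on at least 1 array. Of the 50 genes, 42 had a log2 ratio below 0, 4 were at least 2-fold lower and 0 at least 2-fold higher, against 59.5% below 0, 0.753% 2-fold lower and 0.868% 2-fold higher among the 7833 genes. The 50, like the 7833, include genes above the floor on 1 array alone, whose sign the floor sets. The median over the 50 was -0.25. Without the 10 genes, 35 of 43 were below 0, 2 were at least 2-fold lower and the median was -0.24. The 4 genes were Fgfr2, Dusp7, Spred2 and Fos, the first 2 of which are those for which the genes were picked.

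Receptors and heparan sulphate co-receptors were below 0 in 12 of 12 genes above the floor, where 59.5% of the 7833 genes were. Their median was -0.36, or -0.35 without Fgfr2. The median was -0.23 with the mean over the probe sets of a gene, -0.20 with the floor at the upper quartile and -0.50 without a floor. The count became 11 of 12 after quantile normalization or either centring, and also with the mean over the probe sets of a gene. It was 15 of 15 without a floor or with the floor at the 25th percentile. Besides Fgfr2 and Fgfr3 as the lowest, the members closest to 0 were Fgfr1 and Fgfr4, a receptor best known from liver, which read 204.9 in the allograft and 205.7 in the autograft (log2 ratio -0.01) by a probe set with the x mark. The further Fgfr4 probe sets read below the floor in both samples. Of the co-receptors, chosen for naming after their values were seen, the syndecan Sdc2 read 1049.5 in the allograft and 1692.2 in the autograft (log2 ratio -0.69), with further probe sets at -0.53 and -0.28. Sdc1, another syndecan, stood at -0.52, but a dimmer probe set of it read 292 in the allograft and 244.3 in the autograft, at 0.26. The syndecan Sdc4 stood at -0.37, but a dimmer probe set of it read 241.5 in the allograft and 187.1 in the autograft, at 0.37.

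Ligands were mostly below the floor: of 18 FGF genes, 17 were below it on both arrays, where 36.8% of all 12393 genes were. Fgf1, a ligand of all FGF receptors, was the exception, with 300.5 in the allograft and 323.9 in the autograft (log2 ratio -0.11), while its second probe set read below the floor in both samples. Fgf18, which acts on growth plate cartilage, read 65.2 in the allograft and 16.1 in the autograft, and Fgf23, the phosphate hormone of osteocytes, 27.1 in the allograft and 49.2 in the autograft. These ligands were named after their values were seen, and readings below the floor have no order.

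Adaptors and the RAS to ERK chain had a median of -0.16 over 11 genes, 8 of them below 0, and none was 2-fold apart. With the mean over the probe sets of a gene that median was -0.34, and with the other floors or scalings it lay between -0.12 and -0.10. The MEK genes stood on opposite sides of 0. Map2k2 read 988.8 in the allograft and 1467.3 in the autograft, at -0.57, with a further probe set at -0.60. Map2k1 read 1951.9 in the allograft and 1697.9 in the autograft, at 0.20. The adaptor Shc1 stood at -0.42 and Sos2, an exchange factor for RAS, at 0.30.

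Feedback inhibitors as a wider list had a median of -0.17 over 15 genes, 12 of them below 0, where 59.5% of the 7833 genes were. The 12 include Dusp7, for which the genes were picked. They also include Nf1 and Cbl by bounds of -0.56 and -0.01, whose sign the floor sets, since both passed it in the autograft only. Next to Dusp7, the lowest was Spred2, a Sprouty relative that holds back RAF activation, which read 258.9 in the allograft and 539 in the autograft, at -1.06. Its other probe set read 67.7 in the allograft and 21.1 in the autograft, below the floor. At the upper end were Dusp2, a nuclear phosphatase of ERK found in blood cells, at 0.37 (352.3 in the allograft and 271.7 in the autograft), and Errfi1, an inhibitor of the EGF receptor, at 0.26. Members of the list thus lay on both sides of 0.

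Genes that ERK switches on had a median of -0.52 over 11 genes, 9 of them below 0 and 1 at least 2-fold lower. Egr2 and Fosb are among the 9 by bounds of -0.66 and -0.52. Both passed the floor in the autograft only, so the floor sets their sign, and the median is the bound of Fosb. Fos, an immediate early factor, read 1424 in the allograft and 3756.6 in the autograft, at -1.40. Egr1, another, read 1352.9 in the allograft and 2190.5 in the autograft, at -0.70. Jun, at 0.01, and Egr3, which passed the floor in the allograft only and had a bound of 0.15, were the highest. Many signals besides FGF induce these genes.

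**Figure D3:**
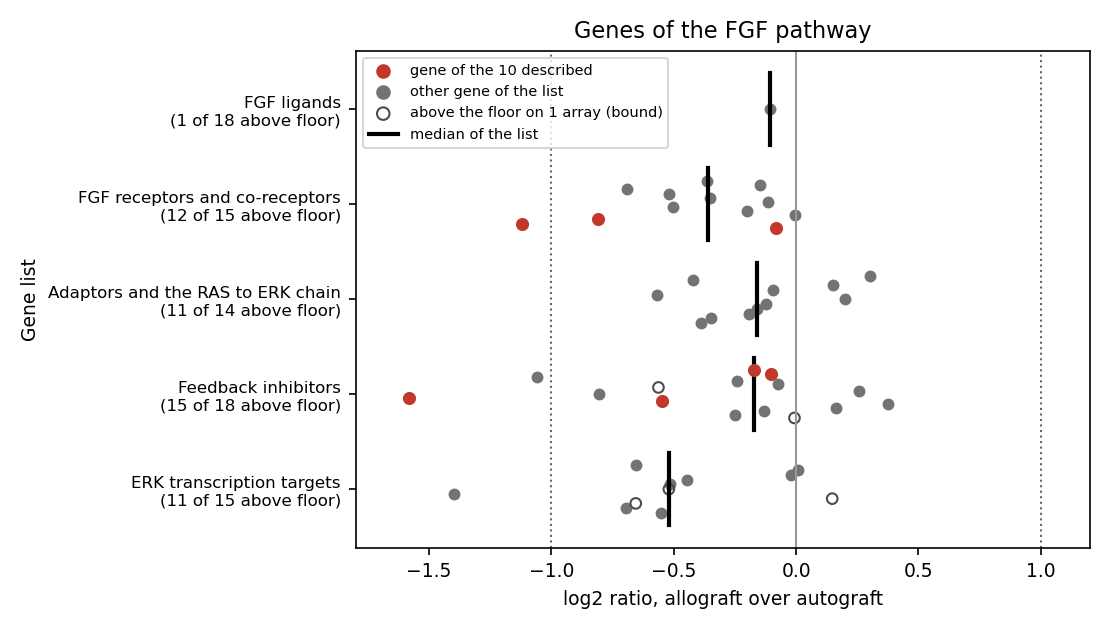
Log2 ratio of allograft over autograft for the genes above the floor in 5 FGF pathway lists, 1 point per gene by its brightest probe set, with list medians as black bars and 2-fold limits dotted; red points belong to the 10 genes described and open points are bounds. The 12 receptors and co-receptors all lie below 0 as deposited (11 of 12 after rescaling), from Fgfr2 at -1.12 to Fgfr4 at -0.01, and the feedback inhibitors spread from -1.58 to 0.37.

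Markers of the cell types that a femur sample can hold differed between the samples as well. In a femur sample, fewer cells of a type and less RNA per cell cannot be told apart. Chondrocyte markers were below 0 in 9 of 10 genes above the floor, with a median of -0.66 and summed intensities of 22751 in the allograft and 28748 in the autograft, between Col9a3 at -1.67 and Col2a1 at 0.44. Hapln1 is among the 9 by a bound of -0.65, since it passed the floor in the autograft only. These chondrocyte ratios are those of the brightest probe sets. A dimmer Col9a3 probe set read 373.7 in the allograft and 431.8 in the autograft, at only -0.21. Dimmer probe sets of Col9a1 and Col11a1 stood at -0.18 and -0.20, where the brightest stood at -0.66 and -0.36. The size of the chondrocyte ratios thus depends on the probe set. Osteoblast markers were below 0 in 5 of 9, with a median of -0.60 and sums of 29993 in the allograft and 24227 in the autograft, between Omd at -1.27 and Col1a1 at 2.70. Endothelial markers were below 0 in 6 of 8 (median -0.24, sums of 3598.6 in the allograft and 4173.3 in the autograft), with Robo4 lowest at -1.23 and Tek highest at 0.17. Erythroid markers were above 0 in 8 of 8 (median 0.78, sums of 23055.5 in the allograft and 12776.7 in the autograft), from Tfrc at 0.38 to Hemgn at 1.41, and neutrophil markers in 10 of 10 (median 0.37, sums of 54593 in the allograft and 42734 in the autograft), from Mmp9 at 0.10 to Mpo at 0.86. That count takes the brightest probe set of each gene. A dimmer Mmp9 probe set read 3979.5 in the allograft and 5059.2 in the autograft, at -0.35. Muscle markers were above 0 in 6 of 10 (median 0.36, sums of 34883.8 in the allograft and 25116.4 in the autograft), between Myod1 at -0.63 and Atp2a1 at 1.71, and fibroblast and tendon markers in 7 of 7 (median 0.38, sums of 45195.5 in the allograft and 31981.6 in the autograft), from Thbs4 at 0.01 to Tnmd at 0.89. Of 6 epithelial markers, Krt8 at 0.58 and Krt18 at 0.16 were above the floor (sums over the 6 of 797.5 in the allograft and 690.6 in the autograft), and of 6 T cell markers none was (sums of 247.2 in the allograft and 394.5 in the autograft). The ratio of 3′ to 5′ control intensity, which rises as RNA breaks down, stood for beta-actin at 1.77 in the allograft and 1.19 in the autograft. The 3′ control of Gapdh read far dimmer than its 5′ control, with a ratio of 0.194 for the allograft array and 0.0349 for the autograft array. RNA breakdown is therefore not read from the Gapdh values. Apart from cell type, ratios rose with intensity at the bright end. Of the 20 intensity bins, the dimmest had a median log2 ratio of -0.06 and the brightest, with a mean of 6016.9, one of 0.27. Many neutrophil, fibroblast and tendon markers are about as bright. For comparison, a log2 ratio below 0 was found for 59.5% of the 7833 genes. How much of the marker ratios goes with intensity was not tested. The part of cell make-up and of RNA quality in the values of the FGF genes was not tested.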

How the data were processed

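Arrays of total RNA were used, 1 array per graft type, grouped by their titles. Each deposited value is an intensity of 1 probe set on 1 array, on a linear scale. The software, background correction and scaling that the authors used were not given in the sources used here. The 2% trimmed means (500.2 in the allograft and 500.1 in the autograft) lay within 10% of each other, so the intensities were used as deposited.

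Of 22626 non-control probe sets, the platform annotation gives 1 gene symbol for 20380, several for 691 and lists no gene for 1555; 20351 of the first kind matched the RefSeq gene table of GRCm38.p6. No build is named for the array, so no coordinates are given for its probe sets or genes; those printed belong to the RefSeq promoter windows of GRCm38.p6. Values below the floor (median of both arrays, 175.2) were set to it before log2 was taken; a ratio with 1 array below the floor is a bound, and none is given with both below. A gene took its probe set with the highest mean. No p-value or interval is given, since 1 array per sample limits the precision. The computing steps were tested on simulated data.

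The 10 genes, the lists and the 2-fold threshold were chosen with earlier results of these data known. Named from each pathway list were the 2 highest and 2 lowest ratios and every 2-fold gene, and from each of 9 cell type lists the highest and the lowest. Further genes were named where a bound entered a count, or after their values were seen. No gene was named for a pattern like another's, since 2 arrays give 1 ratio per gene. Alternatives were quantile normalization, centring on the 75th percentile or the median, a floor at the 25th or at the 75th percentile, log2 of the intensity plus 16 without a floor, the mean over probe sets, and thresholds of 1.5-fold and 4-fold; leaving out probe sets marked s or x was added after the data were seen. Tools were Python 3.11.15 with pandas 2.3.3, numpy 2.4.6, scipy 1.17.1 and, for figures, matplotlib 3.10.9.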

Additional observations from a re-analysis of the deposited data

How the results depend on the processing

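Under the alternative scalings and floors, all 47 log2 ratios obtained for the 9 probe sets above the floor in either sample were below 0. Part of that count was fixed beforehand. The dimmer Fgfr1 probe set, above the floor in the autograft alone, could only be below 0 where a floor was used. Fgfr2 and Dusp7 were picked for their low readings. A floor at the 25th percentile gave ratios to 5 more probe sets, on both sides of 0: -0.99 for Fgfr3, -0.74 (a bound) and 0.13 for Dusp7, 0.04 for Spry2 and 0.26 for Fgf7. The median of the ligands above the floor was -0.11 as deposited, where it is the Fgf1 ratio alone. After quantile normalization, where Fgf7 enters at 0.01, that median was 0.003. The brighter Fgfr2 probe set lay between -1.12 and -1.06 in log2 ratio, and the Dusp7 probe set with the x mark between -1.58 and -1.48, whichever floor or scaling was used, except that a floor at the 75th percentile lies above both Dusp7 readings and leaves it without a ratio. The median of the genes above the floor ran from -0.60 with that floor to -0.26 after quantile normalization, and the median of all genes from -0.10 to -0.02. The value of -0.60 is the midpoint of Fgfr1 at -0.08 and Fgfr2 at -1.12. Only these genes kept a ratio with that floor, and Fgfr2 was picked for its low reading. The next lowest median was the -0.55 of the deposited values. The count of 2 genes at least 2-fold lower was less stable. A floor at the 75th percentile left 1, Fgfr2, by genes and by probe sets alike, and the mean over the probe sets of a gene left 1 gene, Dusp7. It was 0 by genes and by probe sets at a threshold of 4-fold, where 0 of all genes were lower. It was also 0 by genes and by probe sets without the probe sets marked s or x, an alternative added once the data had been seen, since the Fgfr2 and Dusp7 probe sets that were 2-fold lower both carry such a mark. Without a floor, 3 probe sets were 2-fold lower, the added one being the dimmer Fgfr1 probe set at -2.25, and the SD between probe sets of a gene was 0.66. Over all genes, 59 were 2-fold lower and 68 higher; these counts were 38 and 77 after quantile normalization, 47 and 84 or 43 and 87 with centring on the median or the 75th percentile, 240 and 146 or 16 and 34 with the lower or higher floor, 428 and 236 without a floor, 514 and 313 at 1.5-fold, and 0 and 6 at 4-fold. The labels give no replicates, so none could be left out. No paired analysis was possible because each graft type has 1 array.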

Other observations

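Heparan sulphate chains hold FGFs at their receptors, and the enzymes that build and edit these chains were examined after the values of the co-receptors were seen. Of 27 enzymes listed, 23 had a probe set and 16 were above the floor. Of these, 11 had a log2 ratio below 0, where 59.5% of the 7833 genes did. None was 2-fold apart, and the median was -0.05, against -0.08 for all 7833 genes. Hs2st1 and Extl2 count as above 0 by their brightest probe sets, at 0.02 and 0.37. Dimmer probe sets above the floor stood at -0.58 and -0.32 for Hs2st1 and at -0.32 for Extl2. B3galt6 and Hs3st3b1 are among the 11 enzymes below 0 by bounds, since they passed the floor in the autograft only. B3gat3, which completes the linker on which the chain is built, was lowest at -0.42 (281.4 in the allograft and 377.5 in the autograft). The chain polymerases Ext1 and Ext2 stood at -0.16 and -0.35. At the other end, Sulf2, which trims sulphate groups off finished chains outside the cell, stood at 0.39 (842.6 in the allograft and 641.8 in the autograft). The receptors and core proteins had a median of -0.36, which was -0.23 with the mean over the probe sets of a gene. For the enzymes that mean was not taken, and the difference between the lists was not tested.

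Among the targets of ERK, the cyclin gene Ccnd1, named after its values were seen, has 3 probe sets. They read 909.5 in the allograft and 1335.2 in the autograft, 164.1 in the allograft and 308.8 in the autograft, and 91.2 in the allograft and 169.9 in the autograft. The first pair is above the floor on both arrays, the second in the autograft alone and the third on neither. Their log2 ratios were -0.55 for the first and a bound of -0.82 for the second, and the third has none.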
